A study of Arabidopsis thaliana with 6 samples.

Results

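The *LNK* genes (*NIGHT LIGHT-INDUCIBLE AND CLOCK-REGULATED*) form a small family of 4 genes in *Arabidopsis thaliana*, *LNK1* (AT5G64170, chromosome 5), *LNK2* (AT3G54500, chromosome 3), *LNK3* (AT3G12320, chromosome 3) and *LNK4* (AT5G06980, chromosome 5). They were followed here in guard cell protoplasts (GCPs), which are guard cells freed of their walls. Probes were assigned to the family by their transcript identifiers and a RefSeq table, which gave 6 of the 43603 probes on the array and 4 of the 25410 genes that the array represents. *LNK1* and *LNK2* had 2 probes each, and *LNK3* and *LNK4* had 1 probe each. The family was selected on its log2 differences between SL and SS, known from these same arrays, so those differences are described below without a test and support no other result.

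GCPs came from SL plants and from SS plants, with 3 arrays in each group and 1 RNA sample per array. SL plants had grown for 3 weeks in short days and then for 2 weeks in long days, and SS plants for 5 weeks in short days. The short day was 8 h of light at 100 µmol per square metre per second and 16 h of darkness, and the long day was 16 h of light at 41 µmol per square metre per second and 8 h of darkness. All plants were Columbia carrying the homozygous *gl1* mutation, which removes leaf hairs. The sample labels place the isolation of RNA at ZT16 for SL and at ZT8 for SS, whereas the methods of the study give ZT16 for both, where ZT is the time in hours since lights on. Day length, light intensity and, if the labels are right, the time of isolation changed together, and their parts in any difference between SL and SS cannot be told apart. Each replicate number stood for its own batch of plants.

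LNK proteins are transcriptional coactivators of the plant circadian clock. No DNA-binding domain is known in them, and they reach promoters by binding MYB-like clock factors such as RVE8 and RVE4. Together with these factors they activate genes of the afternoon and evening, among them *PRR5* and *TOC1*, whose products in turn repress morning genes. *LNK* transcripts themselves are at their highest in the morning and low in the evening, and they are induced by light given at night. LNK1 and LNK2 also act as corepressors of genes of phenylpropanoid and anthocyanin synthesis, and plants lacking both flower late in long days.

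Between 65.3% and 70.7% of the probes were well above background on each array, and 0 spots were saturated. A probe was kept where SL or SS had it well above background on each of its 3 arrays, which left 28852 probes and 18001 genes. All 6 *LNK* probes were kept and stood well above background on all 6 arrays. Of 9 guard cell markers, among them *GC1*, *KAT1* and *SLAC1*, all 9 were kept. All 6 mesophyll markers were kept as well. The summed signal of the mesophyll markers lay between 28795 and 57746 in SL and between 53047 and 117930 in SS. That of the guard cell markers lay between 64142 and 103880 in SL and between 68780 and 136304 in SS. The brightest probes weigh most in these sums. *GC1* gave 80205 in replicate 3 of SS, and *RBCS1A* and *LHCB1.3* gave 41921 and 39732 in replicate 1 of SS. The 4 mesophyll markers *RBCS1A*, *RCA*, *LHCB1.3* and *LHCB2.1* were called lower in SL by *limma* with the replicate number as a block, as were 3.12% of all genes. *CA1* and *GLDP1* were higher in all 3 pairs without being called. Of the 9 guard cell markers, 0 were called, but 3 were lower in all 3 pairs, as were 24.4% of all genes. Leaving out pair 1, 2 or 3 left 2, 0 or 4 calls among the mesophyll markers, and 0, 0 or 1 among the guard cell markers. With the block after scaling to the 75th percentile, 0 markers of either list were called. In such samples, fewer cells of a type and less RNA per cell cannot be told apart, and the part of the mesophyll markers in the values below was not tested.

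*LNK3* and *LNK4*, whose products also bind MYB-like clock factors, showed the larger differences between the groups. The signals below are linear values after background correction and quantile normalization, in arbitrary units, and the brightness of one probe cannot be set against that of another. The *LNK3* probe gave 1767, 3092 and 2109 in replicates 1 to 3 of SL, and 6138, 9860 and 8074 in replicates 1 to 3 of SS. Every SL array thus lay below every SS array. Its mean was 2323 ± 688 in SL and 8024 ± 1861 in SS (SD, n = 3 each). The ratio of SL to SS was 0.288, 0.314 and 0.261 for same-numbered arrays 1, 2 and 3, which corresponds to a 3.49-fold lower geometric mean in SL. On the log2 scale, the difference (SL minus SS) was -1.80 with an SD of 0.13 over the 3 pairs, the smallest spread among the 6 probes of the family.

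The *LNK4* probe gave 2281, 2588 and 3380 in replicates 1 to 3 of SL, and 5898, 7802 and 11971 in replicates 1 to 3 of SS. These groups did not overlap either, and replicate 3 was the highest array of both. Its mean was 2750 ± 567 in SL and 8557 ± 3107 in SS (SD, n = 3 each). The log2 difference was -1.37, -1.59 and -1.82 in the pairs of replicates 1, 2 and 3, with a mean of -1.60 ± 0.23 (SD, n = 3 pairs). The sequences of the probes were not used here, so whether the *LNK3* and *LNK4* probes bind each other's transcripts was not tested.

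*LNK2*, the member for which most transcripts are annotated (8 in RefSeq), was measured by 2 probes assigned through different transcripts. The brighter probe gave 1275, 1930 and 2302 in replicates 1 to 3 of SL, and 2656, 3677 and 7670 in replicates 1 to 3 of SS. The highest SL array lay just below the lowest SS array, and replicate 3 of SS exceeded both other SS arrays by far. The mean was 1836 ± 520 in SL and 4667 ± 2650 in SS (SD, n = 3 each), and the log2 difference was -1.24 ± 0.43 (SD, n = 3 pairs). It was -1.06 and -0.93 in the pairs of replicates 1 and 2, and -1.74 in that of replicate 3. Without replicate 3 of SS, the log2 difference of the group means was -0.81. Replicate 3 of SL was kept there, which breaks its pair. The dimmer probe gave 263, 451 and 424 in SL and 515, 748 and 1329 in SS, again in the order of replicates 1 to 3. It showed the same split of the arrays, without overlap, and a log2 difference of -1.12 ± 0.48 (SD, n = 3 pairs). Both probes thus gave differences of like size, with the largest one in the pair of replicate 3.

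*LNK1*, the founding member of the family together with *LNK2*, was the only member whose groups overlapped at its brightest probe. That probe gave 819, 1459 and 655 in replicates 1 to 3 of SL, and 2495, 3368 and 1199 in replicates 1 to 3 of SS. Replicate 3 of SS lay below replicate 2 of SL, although SL was lower than SS within each of the 3 pairs. The mean was 978 ± 425 in SL and 2354 ± 1091 in SS (SD, n = 3 each). The log2 difference was -1.61, -1.21 and -0.87 in the pairs of replicates 1, 2 and 3, with a mean of -1.23 ± 0.37 (SD, n = 3 pairs). Without replicate 3 of SS but with replicate 3 of SL kept, the difference of the group means was -1.65. The dimmer *LNK1* probe gave a smaller mean difference. Its signals were 234, 315 and 182 in SL and 285, 409 and 361 in SS for replicates 1 to 3, again with overlapping groups, and its log2 difference was -0.55 ± 0.38 (SD, n = 3 pairs). The pairs of replicates 1, 2 and 3 had -0.28, -0.38 and -0.99, so the probes ordered the pairs in opposite ways. The raw median intensity of this spot lay between 166 and 525, against a local background between 24 and 40. The offset of 50 used in the background correction narrows differences of dim probes more than those of bright ones, but its part in the value of this probe was not tested. Both *LNK1* probes were assigned through the same transcript, and which of them follows the gene more closely could not be settled.

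**Figure D1:**
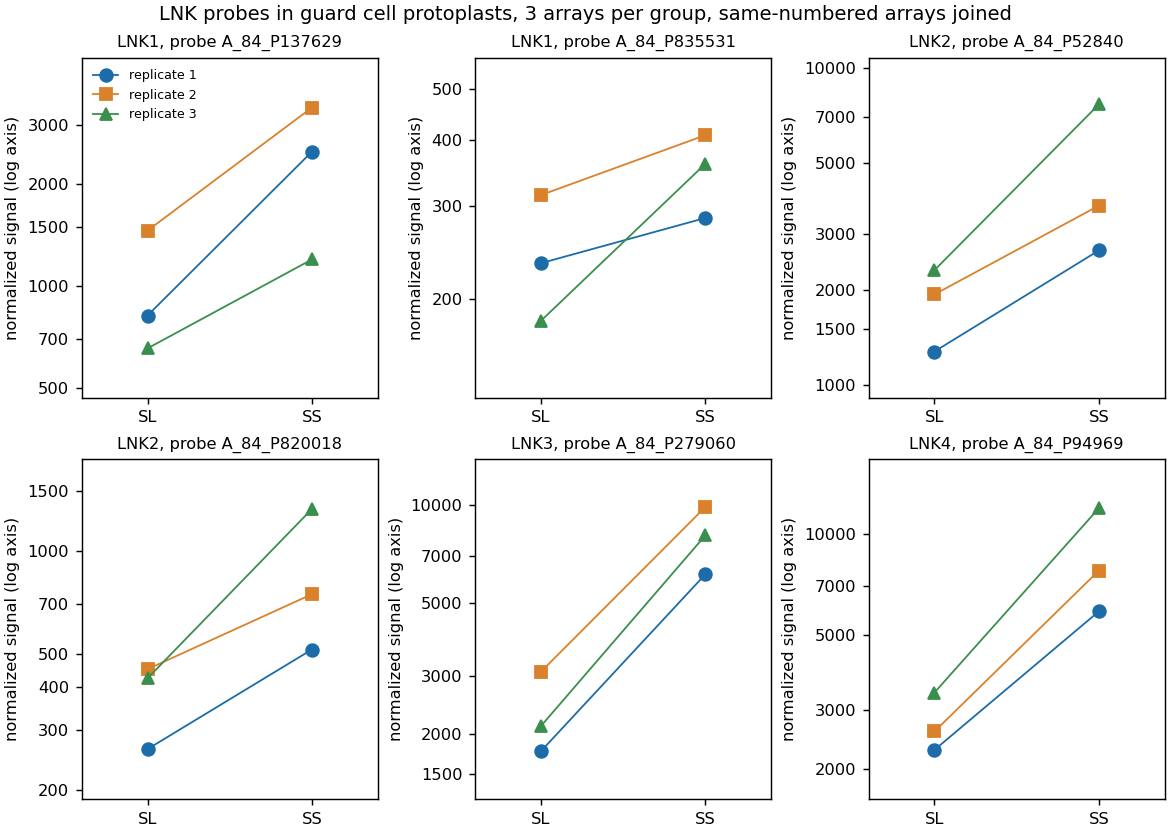
Normalized signal (log axis, own range in each panel) of the 6 *LNK* probes on the 3 SL arrays and the 3 SS arrays, with lines joining arrays of the same replicate number. All 18 lines run lower in SL, and the groups overlap for the 2 *LNK1* probes, where at the brighter probe replicate 3 of SS (1199), and at the dimmer probe replicate 1 of SS (285), lies below replicate 2 of SL (1459 and 315).

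All 4 genes were lower in SL in all 3 pairs, which held for 24.4% of the 18001 genes kept, and all 6 probes were, which held for 23.6% of probes. Every SL array lay below every SS array for 3 of the 4 genes, against 4.21% of all genes, and for 4 of the 6 probes, against 4.74% of all probes. A log2 difference of -1 or lower was found for 0.3% of genes. Ordered from the most lowered gene, *LNK3* took place 4, *LNK4* place 6, *LNK2* place 22 and *LNK1* place 24 of 18001. Since the family was chosen by values of this contrast, these counts and places only describe it.

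The replicate number, which stands for the batch of plants, was not used to choose the genes, and the members differed in how they followed it. At its brighter probe, *LNK1* was highest in replicate 2 and lowest in replicate 3 in both groups. Its highest array exceeded its lowest 2.23 times in SL and 2.81 times in SS. *LNK2* at its brighter probe was lowest in replicate 1 and highest in replicate 3 in both groups, with a highest array 1.81 times the lowest in SL and 2.89 times in SS. *LNK4* followed the same order as *LNK2* in both groups, whereas *LNK3* was lowest in replicate 1 and highest in replicate 2 in both. In the SS group, replicate 3 thus held the lowest value of *LNK1* and the highest values of *LNK2* and *LNK4* on one and the same array.

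These differences between replicate numbers were tested with *limma* over all 28852 probes, with the group in the model, a test that was added after the data had been seen. The replicate number was called for the brighter probe of all 4 genes, with adjusted p of 0.00719 (*LNK1*), 0.0132 (*LNK2*), 0.00918 (*LNK3*) and 0.0127 (*LNK4*) from *limma*. Differences between replicate numbers were common on these arrays, however, as 43.5% of all probes were called. The arrays of replicate 1 lay on a slide of their own, so this test cannot tell the batch of plants from the slide. Replicate 3 minus replicate 2, 2 batches that lay on the same slide, was -1.32 on the log2 scale for *LNK1* (SE 0.18, adjusted p = 0.0038 from *limma*), while 37.6% of all probes were called in this contrast and 19.5% were lower in replicate 3. Within the groups it was -1.16 in SL and -1.49 in SS. For *LNK2* the same contrast was 0.66 (SE 0.20, adjusted p = 0.045 from *limma*), and for *LNK4* it was 0.50 (SE 0.13, adjusted p = 0.0295 from *limma*), where 18% of probes were called higher. The *LNK2* value came mostly from SS, with 0.25 in SL and 1.06 in SS, and whether the groups differed in it was not tested. For *LNK3* it was -0.42 (SE 0.11, adjusted p = 0.0284 from *limma*). The dimmer probes were not called in this contrast, with -0.48 for *LNK1* (SE 0.18, adjusted p = 0.0836 from *limma*) and 0.37 for *LNK2* (SE 0.22, adjusted p = 0.226 from *limma*). Their order of replicates matched that of the brighter probe in 1 group only. The dimmer *LNK1* probe was lowest in replicate 1 in SS, with deviations from the group mean of -0.29, 0.23 and 0.06 in replicates 1 to 3, and the replicate number was not called for it (adjusted p = 0.107 from *limma*). The dimmer *LNK2* probe was higher in replicate 2 (0.29) than in replicate 3 (0.20) in SL, and the replicate number was called for it (adjusted p = 0.0258 from *limma*). Over the other 5 normalizations, the contrast lay between -1.52 and -1.31 for *LNK1* and between 0.48 and 0.67 for *LNK2*.

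**Figure D2:**
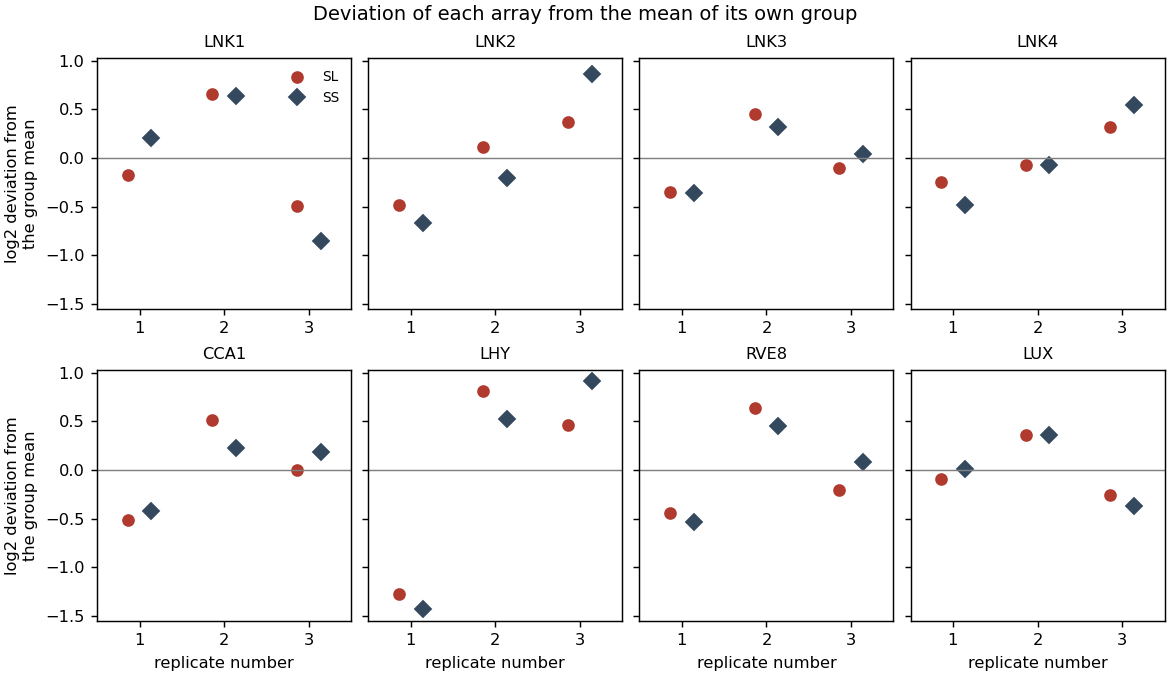
Deviation (log2) of each array from the mean of its own group, by replicate number, for the brightest probe of the 4 *LNK* genes, 3 MYB-like partners and *LUX*, with SL as circles and SS as diamonds. *LNK1* falls below its group means in replicate 3 (-0.49 in SL and -0.85 in SS), where *LNK2* rises above them (0.37 in SL and 0.86 in SS).

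The 7 MYB-like factors taken as partners of LNK proteins were all kept, and 4 of them were called lower in SL with the replicate block, 0 higher, against 3.12% of genes called lower and 1.54% called higher. Like the lists of evening and anthocyanin genes below, this list was chosen with earlier results of these data known. Its calls and p-values therefore only describe it and are no independent support for the *LNK* values. Their median log2 difference was -0.69, against 0.0093 over all genes. The 4 were *CCA1* and *LHY*, the morning factors that repress evening genes, and *RVE8* and *RVE4*, the activators that recruit LNK proteins. *CCA1* averaged 1563 in SL and 4312 in SS, without overlap of the groups, and its log2 difference was -1.49 (adjusted p = 0.00843 from *limma* with the block). The difference was -1.04 for *LHY* (adjusted p = 0.0262), -0.72 for *RVE8* (adjusted p = 0.0307) and -0.69 for *RVE4* (adjusted p = 0.0256), all from *limma* with the block. *RVE6*, *RVE5* and *RVE3*, which belong to the same subfamily as *RVE8*, were not called and had differences of -0.20, -0.18 and -0.28. The least bright of the 3 *CCA1* probes had -0.68 and was not called, and the second *RVE4* probe was called with -0.67. Without the block, 0 of the 7 and 0% of all genes were called by *limma*, with 1185 of all probes at an unadjusted p under 0.05. With it, 1, 0 or 4 were called when pair 1, 2 or 3 was left out, and 1 after scaling to the 75th percentile. In the study's morning RNA sequencing, *CCA1*, *LHY* and *RVE8* are listed as higher in SL by fold change, also with false discovery rates above 0.05. *LNK2* is in the same list, likewise higher in SL and above that rate, whereas it was lower in SL on these arrays. That list holds only genes raised in SL, and the other *LNK* genes are not in it.

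The 6 evening clock genes downstream of RVE8 and the LNK proteins showed no common direction. *PRR5* and *TOC1*, both pseudo-response regulators that repress morning genes, had log2 differences of 0.11 and 0.36, and *ELF4*, a part of the evening complex, had 0.24. None of these 3 was called, although all 3 were higher in SL in all 3 pairs, as were 24.6% of all genes. *PRR5* averaged 5514 in SL and 5143 in SS, and *TOC1* averaged 3038 in SL and 2418 in SS, with overlapping groups. *GI*, which acts in photoperiodic flowering, had -0.25, and *FKF1*, the blue light receptor that works with it, had 0.02. *LUX*, the DNA-binding part of the evening complex, was called lower with the block at its brighter probe (log2 difference -0.44, adjusted p = 0.0477 from *limma*), but its other probe had -0.02 and was not called. In all, 1 of the 6 was called lower and 0 higher with the block, 0 without it, and the median was 0.07. Leaving out pair 3 gave 1 call lower and 1 higher, and leaving out pair 1 or pair 2 gave 0 calls.

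Of 7 genes of anthocyanin synthesis, 3 were kept, and 0 of these were called with or without the block. *F3H*, an early enzyme of flavonoid synthesis, had a log2 difference of 0.34 with every SL array above every SS array, which held for 4.02% of genes. *CHS*, the first enzyme of the pathway, had -0.05, and *UGT79B1*, a glycosyltransferase of anthocyanins, had 0.06. *DFR*, *ANS*, *UGT75C1* and *PAP1* were not well above background on all 3 arrays of either group, and no difference is given for them.

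**Figure D3:**
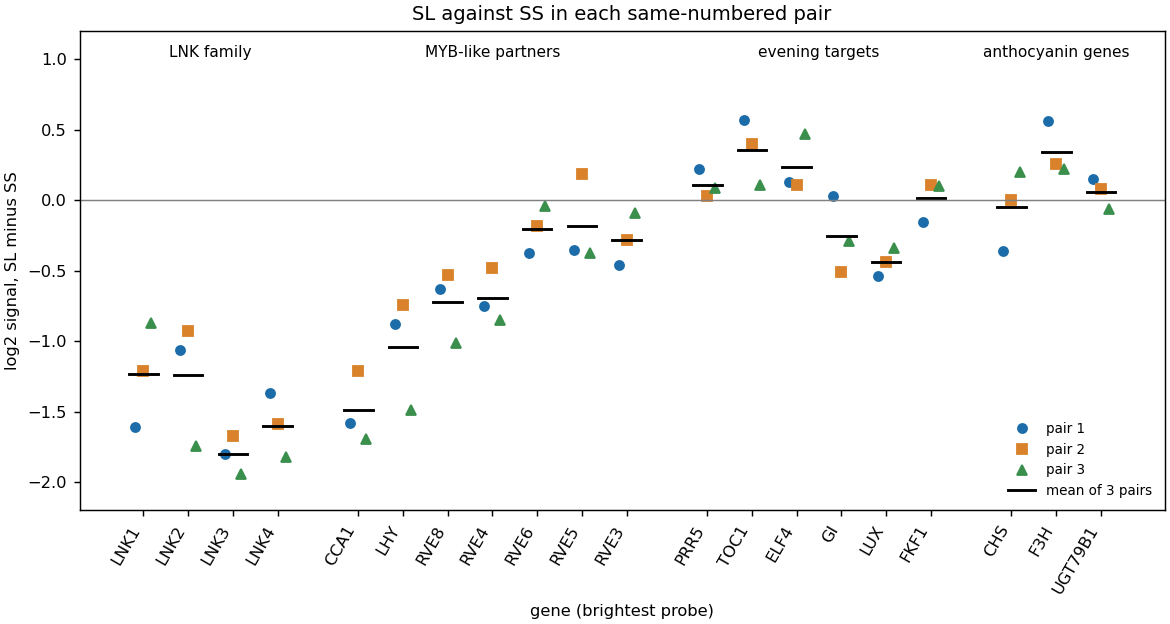
Log2 signal difference (SL minus SS) at the brightest probe of each kept gene, with 1 symbol for each same-numbered pair and a bar for the mean of the 3 pairs. The *LNK* genes lie between -0.87 and -1.94, the evening targets between -0.54 and 0.57.

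Because *LNK* genes respond to light and to the time of day, 8 genes that rise in darkness are given beside them. Of these, 7 were kept, and their median log2 difference was -0.30. *DIN3* and *DIN4*, enzymes of the breakdown of branched-chain amino acids, were called lower in SL with the block (-0.61 and -0.51), as were 3.12% of all genes. Of the 7, 0 were called higher, and 0 were called when pair 1 or pair 2 was left out. The median of the 7 was 0.06, -0.28 and -0.45 in pairs 1, 2 and 3. Their part in the *LNK* values was not tested.

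To find the genes whose pattern over the 6 arrays came closest to each member, log2 profiles were centred on their own means and compared by the root-mean-square (RMS) difference, over 1 brightest probe per gene. This measure is a description and was not tested. *LNK2* and *LNK4* were alike, with an RMS difference of 0.27, each being the third closest of 18000 genes to the other. *LNK3* lay 0.40 from *LNK4*, 0.56 from *LNK2* and 0.57 from *LNK1*. *LNK1* lay 0.96 from *LNK2*, which took only place 13894 of 18000 in closeness to *LNK1*. At these probes, both nevertheless differed between SL and SS by nearly the same amount. The *LNK1* values here rest on its brighter probe. Its dimmer probe, with another order of replicates in SS and a log2 difference of -0.55 against -1.23, was not compared.

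Outside the family, *CCA1* was the closest gene to *LNK3* (RMS difference 0.19), followed by the B-box genes *BBX28* (0.25) and *STO*, also called *BBX24* (0.33), then *ABCF2* and AT5G15950 (0.36 each). Closest to *LNK4* were *LHCB3* (0.24), *LHCA4* (0.26) and *CAB2* (0.29), which encode light-harvesting proteins, followed by the cycling DOF factor gene *CDF3* and the antenna gene *LHCB4.2* (0.32 each). Closest to *LNK2* were AT4G16563 (0.20), AT4G16980 (0.24) and AT3G28220 (0.27), then *CRY3* (0.28), which encodes a cryptochrome, and *SPA3* (0.31), whose product works with COP1 in light signalling. Place for place, the genes listed as closest to *LNK1* lay farther off than those of the other members. AT1G69570 was the closest (0.29), and *DELTA-TIP*, a tonoplast aquaporin gene, came next (0.43), before *HSP17.4*, AT3G01060 and *ABCF2* (0.44 each). The profiles hold the SL and SS difference on which the family was selected, so this measure favours genes that were lower in SL, and the closest genes had log2 differences between -2.05 (*BBX28*) and -0.58 (AT3G01060).

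The genes next to the *LNK* genes on the chromosomes, by the order of protein-coding genes in RefSeq (assembly TAIR10.1), were looked at after the other results were known. All 8 neighbours were kept. Of these, 6 were not called with the block, and their log2 differences lay between -0.36 and 0.08. AT5G64180 beside *LNK1* (-0.86) and *BUG22* beside *LNK3* (-0.50) were called lower, as were 3.12% of all genes. The neighbours on the other side of *LNK1* and *LNK3* had 0.08 and -0.14. With pair 2 left out, 0 of all probes were called.

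Within the slides, the differences kept their direction. Slide 1 held the pair of replicate 1 and slide 2 the pairs of replicates 2 and 3. The log2 difference within slide 1 and within slide 2 was -1.61 and -1.04 for *LNK1*, -1.06 and -1.33 for *LNK2*, -1.80 and -1.80 for *LNK3*, and -1.37 and -1.71 for *LNK4*. *LNK1* was thus the only member with its larger difference on slide 1, and *LNK3* gave the same value on both. No test is possible within slide 1, which held 1 array of each group.

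**Figure D4:**
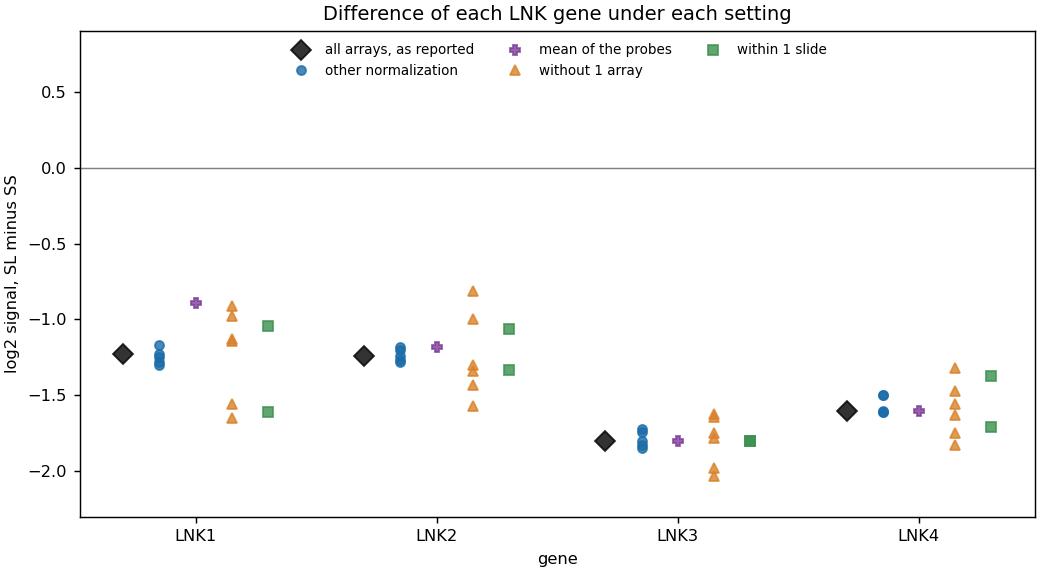
Log2 difference (SL minus SS) of the brightest probe of each *LNK* gene with all arrays as reported, under 5 other normalizations, with the probes of a gene averaged, without each of the 6 arrays in turn (difference of group means, with the same-numbered array of the other group kept), and within each slide. All values lie below 0, between -2.03 (*LNK3* without replicate 2 of SL) and -0.81 (*LNK2* without replicate 3 of SS).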

How the data were processed

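Labelled RNA from GCPs was hybridized to Agilent Arabidopsis arrays in a single colour. The authors read the spots out in Feature Extraction (Agilent, 11.5.1.1), and the deposited intensity values are the median pixel intensity, the local background and a processed intensity, none normalized between arrays. The deposited series matrix repeats the processed intensity. The median intensities were corrected by normexp (offset 50), control spots and outlier spots (3 to 7 an array) were dropped, and quantile normalization over 6 arrays, log2 conversion and averaging of the spots of a probe followed (R 4.3.3, limma 3.58.1). The filter for dim probes, given in the report, kept 28852 of 43603. Of all probes, 34348 (78.8%) were matched to genes through RefSeq, and a gene stands by its brightest probe. Array number limits the precision.

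SL was compared with SS by limma without a block, with Benjamini-Hochberg adjustment over all probes kept, and by the same test blocked on replicate number. The numbers pair the samples, as the series' description names an independent plant batch for each experiment; across probes, the departures of same-numbered arrays from the mean of their group had correlations of 0.71 (number 1), 0.855 (number 2) and 0.739 (number 3). Both SL against SS fits were tested on simulated data. The members and lists were chosen with earlier results of these data known. Named were all members, all genes of the lists of partners, targets and anthocyanin genes, and the 5 genes closest to each member; the neighbouring genes were added later. The arrays were designed on TAIR10 and the RefSeq table on TAIR10.1, so no coordinates are given. Alternatives covered normalization, background correction, filters, the slide, the methods' t-test and each array left out.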

Additional observations from a re-analysis of the deposited data

How the results depend on the processing

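The 4 *LNK* differences kept their direction under all settings tried. Leaving out 1 array at a time gave log2 differences (SL minus SS) between -1.65 and -0.91 for *LNK1*, between -1.57 and -0.81 for *LNK2*, between -2.03 and -1.62 for *LNK3* and between -1.83 and -1.32 for *LNK4*. Here and below, such values are differences of group means. They keep the same-numbered array of the other group and so also break a pair. The value of *LNK1* was -1.61 within slide 1, and -0.89 when its probes were averaged.

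The median of the MYB-like partners lay between -0.81 and -0.40 with 1 array left out. That of the evening targets lay between -0.03 and 0.08, below 0 without replicate 3 of SS (-0.01) and without replicate 2 of SL (-0.03). Scaling to the 75th percentile gave 0.20 on processed intensities and 0.15 after normexp, and it was 0.08 within slide 2 and 0.10 with averaged probes. The median of the anthocyanin genes lay between -0.01 (without replicate 2 of SS) and 0.27 with 1 array left out, and was 0.14 with the series matrix values and 0.15 within slide 1. The cause was not tested.

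Without the replicate block, limma found 0 probes past the threshold under all settings tried, including the slide as a block and each array left out, and the methods' t-test called 0 after Benjamini-Hochberg adjustment (1366 probes at an unadjusted p under 0.05). With the replicate block the number was 1282 (902 lower in SL), and it was 135, 0 or 2459 when pair 1, 2 or 3 was left out and 47 with normexp scaled to the 75th percentile. The calls in each gene list under these settings were added after seeing the data. The cause was not tested.

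The normalizations moved the median of all probes by less than the *LNK* differences, to at most 0.0809 on the log2 scale.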
